A study of Mus musculus with 6 samples.

Results

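Cytosines outside CG that were listed 20 to 23 bases before a listed CG dinucleotide were examined in single-base maps of 5-formylcytosine (5fC) and 5-hydroxymethylcytosine (5hmC). They are called paired non-CG sites below. A site was chosen when its dinucleotide was CA, CC or CT, it lay on chromosomes 1 to 19, and the same table listed a CG dyad 20 to 23 bases downstream along its strand, counted to the cytosine of the dyad on that strand. By this rule 880028 of 1539320 autosomal non-CG sites were paired in the 5fC table, or 57.2% (95% Wilson interval 57.1 to 57.2%). For 5hmC 3022200 of 4849174 were paired, or 62.3% (62.3 to 62.4%). The tables list 6248342 sites for 5fC and 20807956 for 5hmC in all. The sites were chosen by the reads that placed a cytosine and a nearby dyad on a list, so these shares describe the choice and are not a result.

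The maps come from E14 cells, an established line of mouse embryonic stem cells, grown without feeder cells on gelatin in serum medium with LIF and given no other treatment in the labels. The labels name 2 technical replicate libraries of 5fC from a culture at passage 14. For 5hmC they name 2 libraries from that culture and 2 from another culture at passage 12. Each mark has a table with 1 pooled read count per listed cytosine, and the least count was 2 reads. The labels of both 5hmC cultures name the same table, and which libraries it pools is not stated there. Replicate error is thus unknown for every value, and no difference below was tested. Intervals cover counting error over sites alone, and are too narrow where nearby sites share molecules or PCR copies. The spread over the 19 autosomes is given as a further description, and chromosomes are not replicates.

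5hmC is the first and 5fC the next oxidation product that TET enzymes make from 5-methylcytosine. In mammals 5-methylcytosine sits mostly in CG, a palindrome with a cytosine on each strand that together form a dyad, and embryonic stem cells also carry some methylation outside CG, mainly at CA, laid down by the de novo methyltransferases DNMT3A and DNMT3B. The maps rest on PvuRts1I, an endonuclease that cuts a short fixed distance to the 3' side of a modified cytosine. Its preferred sites have another cytosine on the opposite strand beyond the cut, so that the cut falls between a pair of cytosines that face each other. A cut end can thus lie at a fitting distance from a cytosine on either side. The sources used here do not give how cut ends were assigned to cytosines, nor if 1 read may be counted at each cytosine of such a pair. No sequence is printed, since no genome of the build mm9 was used here.

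The autosomal part of the 5fC table held 101416586 reads and that of 5hmC 260905804. Paired sites took 13.0% of the 5fC and 9.18% of the 5hmC autosomal reads. A paired site had a median of 12 reads for 5fC (5th to 95th percentile 3 to 36) and 6 for 5hmC (2 to 21). An unpaired non-CG site had a median of 10 reads for 5fC (3 to 27) and 4 for 5hmC (2 to 15). A CG site had a median of 13 reads for 5fC and 10 for 5hmC. These sums leave out reads at unlisted cytosines and are not the depth of sequencing.

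Within the window of 4 distances, 21 and 22 bases held most paired sites for both marks. Each site was counted once, at its smallest distance. Of 5fC paired sites 13.7% lay at 20 bases, 34.03% at 21, 32.1% at 22 and 20.1% at 23. The 5hmC shares were 14.8%, 36.7%, 32.2% and 16.4% at the same distances. The ends of the window were abrupt. Of all 5fC non-CG sites 0.660% had a dyad at 19 bases and 7.84% at 20, and 11.9% had a dyad at 23 bases and 0.801% at 24. For 5hmC the shares were 0.880% at 19 and 9.23% at 20 bases, and 10.7% at 23 and 1.23% at 24. The pairing was nearly unique. Of paired sites, 99.1% for 5fC and 98.8% for 5hmC had 1 dyad in the window, and the others had 2.

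**Figure D1:**
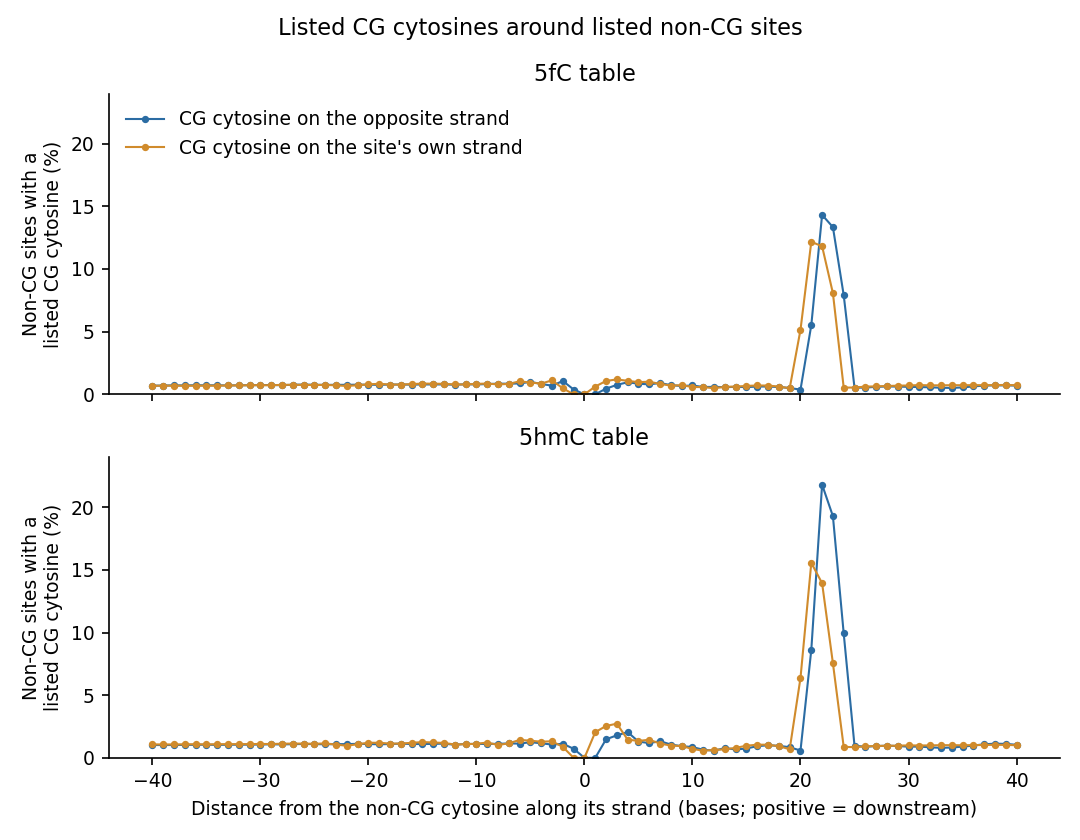
Share of all autosomal non-CG sites (y axis, percent) with a listed CG cytosine at each distance (x axis, bases along the strand of the site, positive downstream), for cytosines on the opposite strand (blue) and on the site's own strand (orange), in the 5fC table (top) and the 5hmC table (bottom). The own-strand curve is highest at 21 bases in both tables, at 12.2% for 5fC and 15.6% for 5hmC, and the opposite-strand curve at 22 bases, at 14.3% and 21.8%.

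The distance varied with the dinucleotide, in a like way for both marks. CA had the highest share of its sites at 20 bases and CC at 23. Among 5fC paired sites 16.1% of CA, 14.8% of CC and 10.4% of CT lay at 20 bases, and 17.1% of CA, 23.3% of CC and 21.8% of CT at 23. Among 5hmC paired sites 18.6% of CA, 14.2% of CC and 10.5% of CT lay at 20 bases, and 11.6% of CA, 22.1% of CC and 18.7% of CT at 23. At 22 bases CC had the lowest share of the 3 dinucleotides, with 25.2% of its 5fC sites there against 32.9% of CA and 35.2% of CT. For 5hmC the shares at 22 bases were 27.5% of CC, 31.8% of CA and 35.5% of CT. The base composition around the sites was not read, so its part in these differences was not tested.

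By make-up, paired 5hmC sites differed from unpaired ones more than paired 5fC sites did. CA made up 42.0% of paired and 45.8% of unpaired 5fC sites, and CT 37.0% and 35.0%. For 5hmC, CA made up 43.2% of paired and 58.0% of unpaired sites, and CT 35.1% and 21.3%. CC was near 1 in 5 throughout, at 21.04% of paired and 19.1% of unpaired 5fC sites and 21.7% and 20.7% for 5hmC. The paired sites of the 2 marks were thus closer to each other in make-up than the unpaired ones. The paired sets of the marks had 562275 sites in common and the unpaired sets 109729, so they are not separate sets of sites.

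The rule asks that the dyad be listed on any strand, so which strand was listed is free to vary. The marks differed in it. Among 5hmC paired sites the cytosine on the strand opposite the site was listed in nearly every case, whereas among 5fC paired sites it was listed in 71.2%. For 5fC, 35.5% of paired sites had the dyad listed on the opposite strand alone, 35.8% on both strands and 28.8% on the site's own strand alone. For 5hmC the shares were 31.1%, 63.6% and 5.35%. The order of the marks in the share with the opposite strand alone turned with the minimum reads, at 36.2% for 5fC and 36.8% for 5hmC with at least 5 reads per site, and 38.3% and 47.5% with at least 10. The opposite cytosine was therefore listed for 71.2% of 5fC paired sites (interval 71.1 to 71.3%) and 94.6% of 5hmC paired sites (94.6 to 94.7%), and the own-strand cytosine for 64.5% and 68.9%. A given strand of any listed autosomal dyad was listed in 60.2% of 5fC and 70.0% of 5hmC dyads. The own-strand share of 5hmC paired sites was close to that level and their opposite-strand share was far above it. That level covers dyads of every depth, and deeper dyads were listed on 1 strand less often. Of 1571533 5hmC dyads with 2 to 4 reads, 1561515 were on 1 strand, against 57977 of 449279 above 64 reads. The dyads of 5hmC paired sites had a median of 30 reads, and the shares were not matched for reads.

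Dyads 30 to 33 bases downstream leaned the other way, which 5hmC dyads just past the window did not. At 24 bases the opposite cytosine was listed in 66.2% and the own-strand one in 66.4% of cases for 5fC. For 5hmC the shares there were 78.7% and 71.0%. Where a dyad lay 30 to 33 bases downstream of a non-CG site, its opposite cytosine was listed in 55.3% of cases for 5fC and 64.9% for 5hmC, and its own-strand cytosine in 73.5% and 77.1%. At 20 to 23 bases upstream, the opposite cytosine was listed in 67.6% and the own-strand one in 64.2% for 5fC, and in 72.7% and 71.3% for 5hmC. The 5fC paired sites, at 71.2% and 64.5%, were close to these upstream values, and the 5hmC ones were not. Sites with a dyad listed on the own strand alone nevertheless also gathered inside the window. At 21 bases there were 79163 of them for 5fC and 50935 for 5hmC, against 4446 and 14419 at 19 bases and 4174 and 12703 at 24 bases. The step at the edge was thus larger for 5fC.

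**Figure D2:**
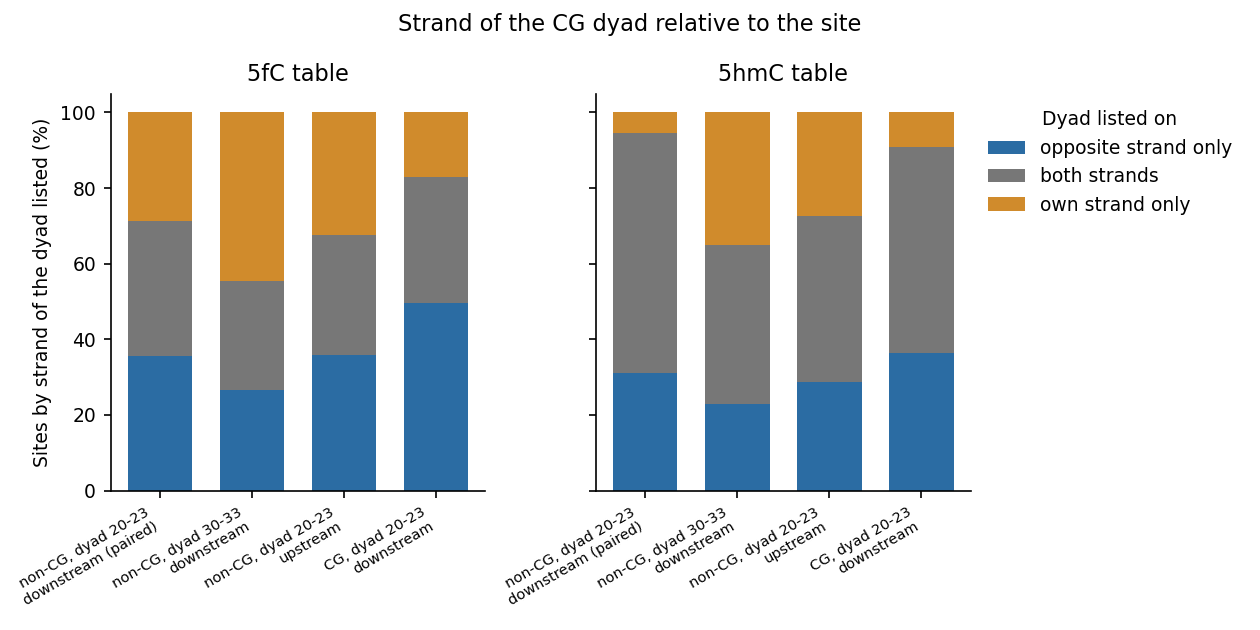
Share of sites (y axis, percent) whose CG dyad was listed on the opposite strand alone (blue), on both strands (grey) or on the own strand alone (orange), for paired non-CG sites, non-CG sites with a dyad 30 to 33 bases downstream, non-CG sites with a dyad 20 to 23 bases upstream, and CG sites with another dyad 20 to 23 bases downstream. The orange part of the paired sites is 28.8% for 5fC (left) and 5.35% for 5hmC (right). Facing pairs of CG sites were counted from each end, so the bars of CG sites are not on the same footing as the others.

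The exact distance moved the strand a little. The opposite cytosine was listed for 73.6% of 5fC sites with a dyad at 21 bases and 66.6% of those at 23. For 5hmC it was 95.4% at 21 bases and 92.7% at 23. The dinucleotides differed less, with 72.3% of CA, 71.9% of CC and 69.6% of CT for 5fC, and 94.99%, 94.8% and 94.2% for 5hmC. Up to 64 reads, sites with more reads had the opposite cytosine listed more often, at 67.7% of 5fC paired sites with 2 reads and 77.5% of those with 33 to 64 reads, and at 89.8% and 98.5% of 5hmC paired sites. At equal reads per site the 5hmC share was above the 5fC share in each of the 7 read classes. The nearest were the sites above 64 reads, at 83.6% for 5fC (5377 sites) and 95.9% for 5hmC (1233 sites). An unlisted cytosine may still carry the mark, and the depth of the 2 tables differs, so equal reads at a site do not make the lists equal.

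The same pairs were also counted per dyad, which restates the lean and is no separate support for it. A dyad listed on 1 strand has a flank whose paired sites would face the listed cytosine from the opposite strand, and another flank whose paired sites would share its strand. Of 3068995 such 5fC dyads, 10.1% had a paired site on the facing flank and 8.20% on the other, a ratio of 1.24. Of 6685510 such 5hmC dyads the shares were 13.8% and 2.44%, a ratio of 5.67. The ratio grew with the reads of the dyad. It was 1.14 for 5fC dyads with 2 to 4 reads and 1.69 for those above 64 reads, and 1.98 and 10.2 for 5hmC dyads. Above 64 reads, 25.6% of 5fC and 51.6% of 5hmC dyads on 1 strand had a paired site on the facing flank, against 15.1% and 5.06% on the other. In every read class the facing flank was ahead for both marks.

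**Figure D3:**
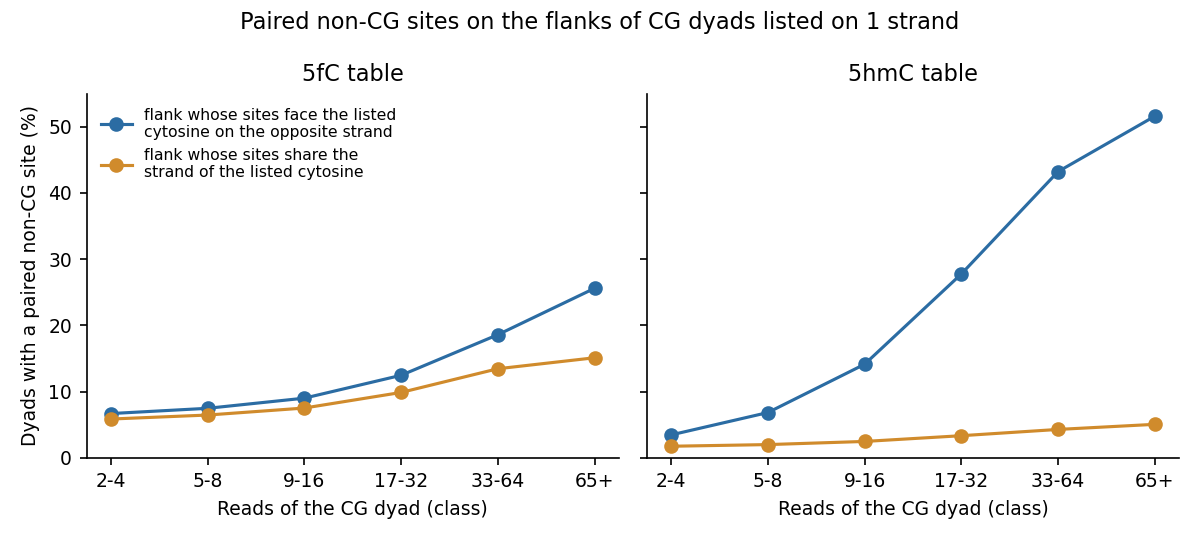
Share of CG dyads listed on 1 strand (y axis, percent) that had a paired non-CG site on the flank facing the listed cytosine from the opposite strand (blue) or on the flank on the listed cytosine's own strand (orange), by class of the reads of the dyad (x axis), for 5fC (left) and 5hmC (right). The curves stay within a ratio of 1.69 of each other for 5fC and reach a ratio of 10.2 for 5hmC.

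About 1 dyad in 5 had a paired site. It was 799508 of 3858031 5fC dyads (20.7%) and 2648212 of 11135596 5hmC dyads (23.8%). The plus and minus strand contributed alike, with a plus-strand paired site at 11.3% and a minus-strand one at 11.3% of 5fC dyads, and 13.3% and 13.3% of 5hmC dyads. Of dyads with a plus-strand paired site, 17.01% for 5fC and 21.05% for 5hmC had a minus-strand one too. The share with any paired site was 11.9% of 5fC dyads with 2 to 4 reads and 46.2% of those above 64 reads. For 5hmC it was 5.10% and 68.2%, so that most of the deepest 5hmC dyads had a listed non-CG cytosine in the window.

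More than 1 paired site on a flank was rare. A flank with a paired site had exactly 1 in 98.4% of cases for 5fC and 96.7% for 5hmC. Where there were 2, the distances 21 and 22 together were the least frequent combination, although these are the 2 most frequent distances alone. They made up 1.92% of 12473 such 5fC flanks and 2.53% of 88318 such 5hmC flanks, while the distances 20 and 21 made up 25.7% and 26.6%. In the flanks with 21 and 22 together, the site at 21 had more reads in 69.0% for 5fC and 74.0% for 5hmC. For 20 and 21 together the reads were nearly balanced, with more at 20 in 47.3% for 5fC and 46.9% for 5hmC and more at 21 in 49.4% and 44.9%. Which cytosines are present on each flank was not read from a genome, so the part of the sequence in these counts was not tested.

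The reads of paired sites tracked the opposite cytosine of the dyad for 5hmC, and neither cytosine in particular for 5fC. This was computed over paired sites with 1 dyad in the window. Where the dyad was listed on both strands, the 5hmC reads of the site had a Spearman correlation across 1904069 sites of 0.39 with the opposite cytosine and 0.11 with the own-strand cytosine. Across 312094 such 5fC sites the correlations were 0.12 and 0.15. Where the opposite strand alone was listed the correlation was 0.11 for 5fC and 0.39 for 5hmC. Where the own strand alone was listed it was 0.12 for 5fC and 0.05 for 5hmC. For unpaired non-CG sites with a dyad on both strands 30 to 33 bases downstream, the correlations with the opposite cytosine were 0.03 for 5fC and -0.003 for 5hmC. These are correlations across sites of the same libraries, which share local depth, and sites are not independent.

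In levels, the median 5hmC paired site beside a dyad on both strands had 4 reads where the opposite cytosine had 2 to 4 reads and 19 in the highest read class of that cytosine. Ranked by the own-strand cytosine instead, the medians were 6 and 10. For 5fC they were 12 and 20 by the opposite cytosine and 12 and 21 by the own-strand cytosine. The steeper relation to the opposite strand was thus seen for 5hmC and not for 5fC.

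**Figure D4:**
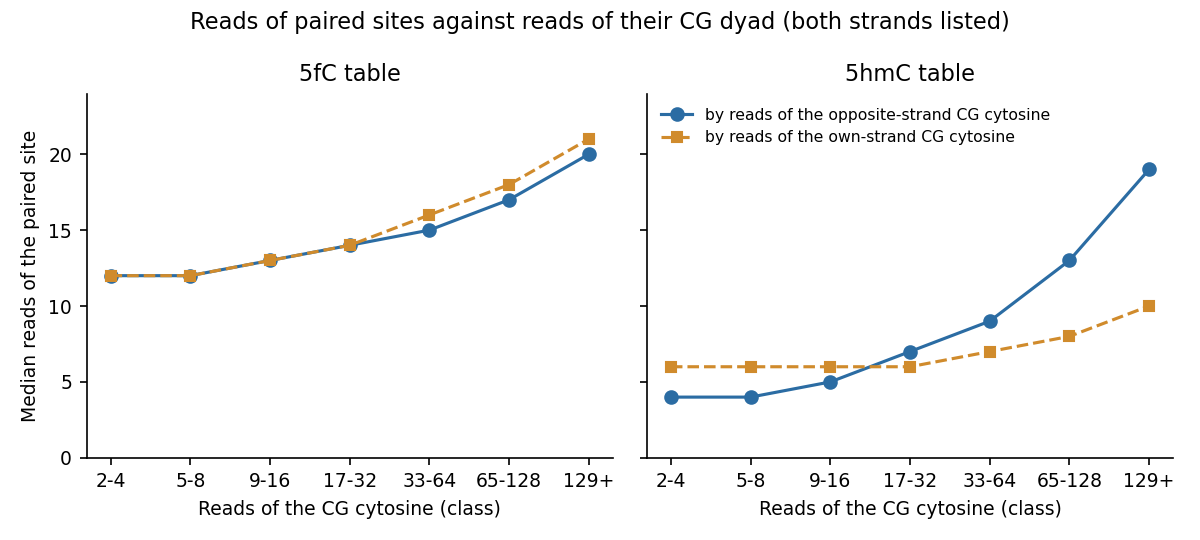
Median reads of paired non-CG sites (y axis) by class of the reads of the CG cytosine (x axis) on the opposite strand (blue, solid) or on the site's own strand (orange, dashed), for dyads listed on both strands, in the 5fC table (left) and the 5hmC table (right). In the 5hmC panel the blue curve runs between 4 and 19 reads and the orange one between 6 and 10, while the curves of 5fC nearly coincide.

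A paired site usually had fewer reads than its dyad. Its share of the reads of the site and its dyad together had a median of 35.7% for 5fC (5th to 95th percentile 9.62 to 75.0%) and 17.9% for 5hmC (5.26 to 50.0%). The site had more reads than the whole dyad in 26.7% of 5fC and 3.78% of 5hmC cases. Equal numbers were rare. Where the opposite strand alone was listed, the site and the cytosine had equal numbers in 3.43% of 5fC and 2.80% of 5hmC pairs.

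The table of the other mark was not used to choose the sites, and it listed paired sites more often than unpaired ones. Of 5fC paired sites 64.5% (interval 64.4 to 64.6%) were in the 5hmC table at the identical base and strand, against 44.1% of unpaired 5fC non-CG sites and 83.3% of 5fC CG sites. With at least 10 reads per site in both tables the share of 5fC paired sites was 39.98%. Of 5hmC paired sites 24.6% (24.6 to 24.6%) were listed for 5fC, against 6.31% of unpaired sites and 24.8% of CG sites. Paired sites had more reads, and sites with more reads are listed for the other mark more often. At equal reads the order held in every class for 5hmC, for example at 9 to 16 reads with 34.3% of paired and 15.4% of unpaired sites. For 5fC it held in each class up to 64 reads, with 62.8% and 44.0% at 9 to 16 reads, and turned above 64 reads, with 90.3% of 5377 paired and 93.8% of 1896 unpaired sites. At equal reads 5hmC CG sites were listed for 5fC less often than paired sites in each class up to 64 reads. Their share was 20.7% at 9 to 16 reads, and above 64 reads it was 91.9% against 90.3% of paired sites. 5fC CG sites were listed for 5hmC more often than paired sites in every class, with 81.6% at 9 to 16 reads.

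**Figure D5:**
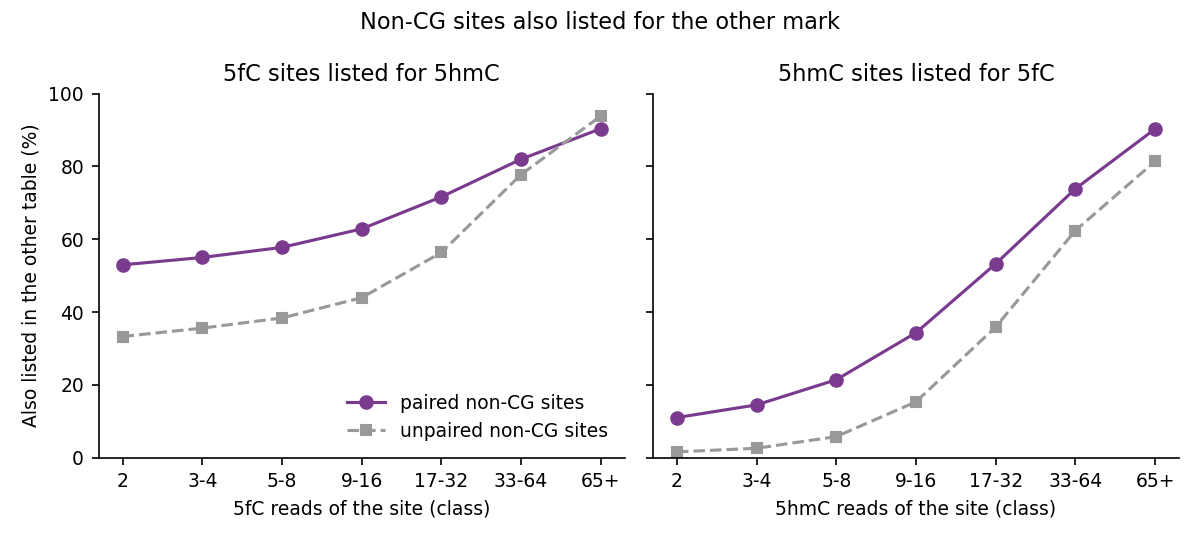
Share of non-CG sites also listed for the other mark on the same base and strand (y axis, percent) by class of the reads of the site (x axis), for paired sites (purple, solid) and unpaired sites (grey, dashed). At 9 to 16 reads the shares are 62.8% and 44.0% of 5fC sites listed for 5hmC (left) and 34.3% and 15.4% of 5hmC sites listed for 5fC (right), and the curves of 5fC cross above 64 reads.

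Of 567853 sites that were paired for 5fC and listed for 5hmC, 562275 (99.0%) were paired in the 5hmC table too. Of all 5fC paired sites, listed for 5hmC or not, 97.3% had a 5hmC dyad in the window. Of unpaired 5fC sites listed for 5hmC, 62.3% were paired there, against 62.3% of all 5hmC non-CG sites. In the other direction, 75.6% of the 743447 5hmC paired sites that were listed for 5fC were paired there, against 57.2% of all 5fC non-CG sites. Of all 5hmC paired sites, listed for 5fC or not, 58.4% had a 5fC dyad in the window. At the 562275 sites paired in both tables the 5fC and 5hmC reads had a Spearman correlation of 0.20, against 0.29 at 109729 non-CG sites of both tables that were paired in neither. The medians at the sites paired in both were 13 reads for 5fC and 10 for 5hmC.

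Many 5fC sites without a 5fC dyad in the window had a 5hmC dyad there. Of 659292 unpaired 5fC sites, 60.03% had a listed 5hmC dyad 20 to 23 bases downstream, against 4.89% at 30 to 33 bases downstream and 5.65% at 20 to 23 bases upstream. Its opposite cytosine was listed for 5hmC in 84.3% of these cases and its own-strand cytosine in 65.6%. With dyads of either table counted, 82.9% of all 5fC non-CG sites had a dyad in the window. For 5hmC sites the share was 62.8% with dyads of either table and 62.3% with those of its own. Of 1826974 unpaired 5hmC sites 1.16% had a 5fC dyad in the window, against 2.02% at 30 to 33 bases. These sites were chosen for having no 5hmC dyad in the window, and 83.3% of 5fC CG sites are also in the 5hmC table, so the low share follows from the choice. The 5hmC table lists 11135596 autosomal dyads and that of 5fC 3858031, so a 5hmC dyad is nearer to hand at any distance, and the values at 30 to 33 bases show by how much.

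The 5hmC table was also read at the dyads of 5fC paired sites. Where 5fC was listed on the own strand alone, the opposite cytosine was in the 5hmC table in 75.3% of 253260 cases, with a median of 15 5hmC reads, and the own-strand cytosine in 83.4%, with a median of 22. Over all autosomal 5fC dyads on 1 strand, 56.0% of the cytosines not listed for 5fC and 82.6% of those listed were in the 5hmC table. The unlisted opposite cytosine of a paired site was thus in the 5hmC table more often than an unlisted dyad cytosine in general. Where 5fC was on the opposite strand alone, the unlisted own-strand cytosine was in the 5hmC table in 60.2% of 312064 cases, closer to that level. The listed opposite cytosine was there in 92.6% of these cases, also above the 82.6% of listed cytosines in general. Dyads with more reads had a paired site more often, and these shares were not matched for reads, so the part of depth was not tested. Among sites paired in both tables with 5fC on the own strand alone, 9.88% had 5hmC on the own strand alone too, 14.7% on the opposite strand alone and 75.4% on both strands. The sources used here do not say how the marks were kept apart, and the part of signal shared between the libraries was not tested.

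Along the genome the strand pattern varied little outside chromosomes 8 and 11. On the other 17 autosomes the opposite cytosine was listed for 69.9 to 71.2% of 5fC and 94.2 to 94.7% of 5hmC paired sites. On chromosome 8 it was 74.3% and 95.4%, and on chromosome 11 74.6% and 95.6%. The share with the own strand alone was between 5.18 and 5.75 times as high for 5fC as for 5hmC on each of the 19 autosomes. Paired sites per 100 dyads were 28.4 for 5fC and 33.3 for 5hmC on chromosome 8 and 29.8 and 35.7 on chromosome 11, against 19.8 to 23.1 and 22.8 to 29.1 on the other 17. The median reads of a paired site were also higher on these chromosomes, at 13 for 5fC and 7 for 5hmC on both, against 12 and 6 on the other 17. The share of non-CG sites that were paired was 61.7% and 65.2% on chromosomes 8 and 11 for 5fC, against 51.9 to 58.1% elsewhere. For 5hmC the 60.4% and 62.6% there lay inside the range of 58.0 to 65.3% of the others. The part of depth in these values was not tested.

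Named by rule, the windows of 100 kb with the most paired sites per dyad were all on chromosomes 8 and 11 (mm9). For 5fC they were chromosome 11 from 3000001 to 3100000 with 77.7 per 100 dyads, from 117900001 to 118000000 with 47.3 and from 119900001 to 120000000 with 47.1. The median of 12446 windows with at least 100 dyads was 21.9. For 5hmC they were chromosome 11 from 117900001 to 118000000 with 67.9, and chromosome 8 from 123000001 to 123100000 with 64.99 and from 122900001 to 123000000 with 63.96, where the median of 23096 windows was 18.5. No mm9 annotation was used here, so genes in these windows are not named.

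The paired sites with the most reads were the same for both marks and lay close together on chromosome 2 (mm9), far above the 95th percentile of 36 reads for 5fC and 21 for 5hmC. The handling of reads that map to several places is not stated in the labels. The CA at position 98507284 on the plus strand had 12603 5fC and 4020 5hmC reads. Its dyad, 22 bases downstream with its plus cytosine at 98507306, was listed on the own strand alone, with 15201 5fC and 5032 5hmC reads. The CA at 98507033 on the plus strand had 8111 5fC and 2771 5hmC reads, and the own-strand cytosine of its dyad, at 98507055, had 93 and 26. The CA at 98507288 on the minus strand had 6529 5fC and 1989 5hmC reads. Its dyad lay 23 bases away with the own-strand cytosine at 98507265, and had 149169 5fC and 340509 5hmC reads on the own strand and 1879 and 199 on the opposite strand. At these sites the own strand of the dyad had more reads than the opposite strand for both marks.

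Paired sites lay among more CG dyads than unpaired ones. Within 100 bases on either side, leaving out the dyads in the window, a paired site had a mean of 2.26 other listed 5fC dyads and an unpaired one 1.44. For 5hmC the means were 2.91 and 2.19. No other dyad was within reach for 15.8% of paired and 35.9% of unpaired 5fC sites, and for 7.99% and 16.5% of 5hmC sites. A site in a region dense in CG is likelier to meet the rule, so this difference cannot be told apart from the choice.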

How the data were processed

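Genomic DNA of E14 cells was profiled by Pvu-Seal-seq in 6 libraries. Reads were handled with CASAVA, bcl2fastq, cutadapt and Bowtie and placed on mm9, per the submitters' processing notes, which give no versions. The authors deposited 1 table per mark with raw read counts, in whole numbers, at each listed cytosine, pooled over libraries that the labels do not identify. The assignment of cut ends and the rule for listing a site were not stated in the labels.

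From these counts, non-CG sites on chromosomes 1 to 19 were paired with CG dyads by position and strand. No filter on reads was set. A site with several dyads in the window was assigned the nearest. Shares have 95% Wilson intervals. No test was possible without counts per library. The functions recovered 10 of 10 planted values on simulated data of 200000 dyads and 50000 non-CG sites. The sites and descriptions were chosen with earlier results of these data known. Named sites were the 3 with the most reads per mark and the 3 with the most in both tables, and named windows the 3 with the most paired sites per dyad. Alternatives were minimum reads of 5 or 10, sites with 1 dyad, the distance counted to a listed cytosine on the opposite strand (dyads on the own strand alone drop out), and leaving out chromosomes 8 and 11. Python 3.11.15, numpy 2.4.6, pandas 2.3.3, scipy 1.17.1 and matplotlib 3.10.9 were used.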

Additional observations from a re-analysis of the deposited data

Results flagged for a closer look

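Chromosomes X and Y and the mitochondrial chromosome lie outside the comparisons above and also held paired non-CG sites. No control library was used here, so the number of such sites that background alone would give is not known. Chromosome X had 3680 paired sites for 5fC, 33.4% of its non-CG sites, and 25598 for 5hmC, 55.5%. The opposite cytosine of the dyad was listed for 65.7% of them for 5fC and 91.2% for 5hmC. Chromosome Y had 95 paired sites for 5fC and 217 for 5hmC, 5.93% and 17.5% of its non-CG sites. The mitochondrial chromosome had 108 paired sites for 5fC and 5 for 5hmC, 5.68% and 4.72% of its non-CG sites.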

How the results depend on the processing

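Values follow in the order share of non-CG sites that were paired, dyad on the opposite strand alone, most frequent distance, also listed for the other mark, and median share of the pair's reads, all in percent. Reported values were 57.2, 35.5, 34.03, 64.5 and 35.7 for 5fC and 62.3, 31.1, 36.7, 24.6 and 17.9 for 5hmC. With at least 5 reads per site they were 55.9, 36.2, 34.2, 55.3 and 37.1 for 5fC and 70.3, 36.8, 38.3, 28.3 and 21.2 for 5hmC. With at least 10 reads, where the order of the marks for the opposite strand alone was turned as with 5, they were 51.5, 38.3, 34.7, 39.98 and 40 for 5fC and 74.2, 47.5, 40.6, 30.7 and 25.7 for 5hmC. With the distance counted to a listed opposite-strand cytosine, which shifts the window by 1 base and also drops dyads on the own strand alone, they were 33.4, 50.2, 42.8 (at 22 bases), 71.9 and 33.3 for 5fC and 49.9, 33.1, 43.5 (at 22 bases), 24.9 and 17.7 for 5hmC. Without chromosomes 8 and 11 they were 55.7, 36.3, 34.1, 63.6 and 36.4 for 5fC and 62.5, 31.8, 36.8, 23.5 and 18.2 for 5hmC. With exactly 1 dyad in the window they were 56.7, 35.6, 34.1, 64.5 and 35.7 for 5fC and 61.6, 31.2, 36.7, 24.5 and 17.8 for 5hmC. Of 50 such values 44 lay outside the counting interval of the reported value. The minimum reads also thin the dyads and the other mark's list, and the opposite-strand setting drops the dyads on the own strand alone, so part of those moves is by construction. No paired analysis was possible because each site has a single count per mark that joins its libraries. Leaving out a library was not run for the same reason. Depth limits every share, since a cytosine under the listing minimum is absent from the lists.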

Other observations

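CG sites showed the lean to the opposite strand as well. Of 341580 5fC CG sites with another listed dyad 20 to 23 bases downstream, the opposite cytosine of that dyad was listed in 82.8% and the own-strand cytosine in 50.5%. For 1051430 such 5hmC CG sites the shares were 90.9% and 63.7%. At 30 to 33 bases downstream the opposite cytosine was listed for 60.1% of 5fC and 71.4% of 5hmC CG sites. Facing pairs of CG sites were counted from each end and pairs on the same strand once, which raises the opposite share of CG sites. These shares are thus not on the same footing as the 71.2% of 5fC and 94.6% of 5hmC paired non-CG sites, and were not ranked against them.

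Some unpaired non-CG sites had a listed non-CG cytosine in the facing place instead. A listed non-CG cytosine on the opposite strand, 21 to 24 bases downstream, was found for 0.773% of paired and 2.84% of unpaired 5fC sites, and for 2.70% of paired and 18.3% of unpaired 5hmC sites. At 31 to 34 bases the shares were 1.17% and 0.609% for 5fC and 1.52% and 0.792% for 5hmC. Paired sites were chosen for a CG dyad at this place, which leaves less room there for a non-CG cytosine. Unpaired sites were chosen for having no listed dyad there, so the difference at 21 to 24 bases cannot be told apart from the choice.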
